A study of Homo sapiens with 4 samples.

Results

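EGR1, EGR2, EGR3, NR4A1, NR4A2, NR4A3, IER2, IER3, KLF4 and KLF6, 10 immediate-early genes outside the AP-1 family, were measured in the human medulloblastoma cell line Daoy. They were picked by symbol, and all 10 were found among the 57820 gene identifiers of the count files and passed the filter on low counts that left 17024 tested genes. The study set out to lower ARID1B, a DNA-binding subunit of the BAF chromatin remodelling complex, to ask which signalling pathways then differ. The group of interest was a single library of RNA from a polyclonal Daoy population carrying, in the lentiviral vector tet-pLKO-puro, a doxycycline-inducible short hairpin RNA (shRNA) against ARID1B. The controls were 3 libraries labelled wild type, numbered 1 to 3. Cells with the empty vector and parental cells are both mentioned as controls, without a statement of which numbered library came from which. Wild-type values below run in the order of libraries 1, 2 and 3. Per the labels, doxycycline at 1 µg/ml was given for 72 h, and the labels state this for every sample, controls included.

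The library labelled ARID1B shRNA held 8792848 reads assigned to genes, and the wild-type libraries held 12619786 to 15390106. ARID1B itself was not lower in the library bearing its label, at 175 CPM (read counts relative to the scaled library size) against 164, 88.0 and 72.9 CPM in wild type (edgeR adjusted p = 0.399). That library is therefore called by its label, and every direction is one of a library whose target transcript was not measured as lowered. With 1 library in that arm, the spread in each test came from the wild-type libraries alone. Nothing says that these came from separate cultures. The p-values may thus measure technical spread, or a difference between parental and empty-vector cells, and no spread between cultures. Of the medulloblastoma and neural markers, ATOH1 was at 0 counts throughout, and all together summed to 222 CPM against 185 to 228 CPM, of which SFRP1 made up 105 CPM against 86.0 to 104 CPM. Of 14 tested, 1 rose, ZIC2 (24.8 CPM against 8.93, 10.6 and 8.14 CPM, edgeR adjusted p = 0.0430; 0.231 with the GC content and length trend described below removed), and their median log2 fold change was -0.36. SOX2 (1.82 CPM against 3.94 to 6.75 CPM), MYCN (1.25 CPM against 2.02 to 3.01 CPM) and HHIP (2.05 CPM against 3.25 to 6.21 CPM) lay below every wild-type library and did not pass (edgeR adjusted p = 0.135, 0.268 and 0.312). PTCH1 (19.5 CPM against 22.9 to 41.7 CPM) and OTX2 (3.65 CPM against 4.79 to 7.45 CPM) also lay below every one and did not pass. NEUROD1, too low to test, had 0 counts against 4 to 6. GLI2 (14.8 CPM against 5.80 to 9.76 CPM) lay above every one and did not pass, and SFRP1 and ZIC2 lay above as well. Of all tested genes, 3.65% rose, 35.4% lay above every wild-type library and 37.9% lay below. Markers of blood, epithelial, liver and glial cells summed to 6.96 CPM in the library labelled ARID1B shRNA and to 3.25 to 3.86 CPM in wild type. CD3E and HBB were at 0 counts throughout and PTPRC at 0 counts against 0 to 1. The endothelial marker PECAM1 was listed but not matched by symbol, so no endothelial marker is in the sum. Most of that sum was the oligodendrocyte lineage factor OLIG2, at 4.90 CPM against 0.0776, 0.618 and 0.586 CPM (43 counts against 1, 8 and 9), which did not pass (edgeR adjusted p = 0.0591). Mesenchymal markers summed to 15473 CPM against 25426 to 32477 CPM, and of these VIM fell (937 CPM against 2439 to 2658 CPM, edgeR adjusted p = 0.021). Most of that sum was FN1 (10750 CPM against 18933 to 26801 CPM), which did not pass. COL1A2 also lay below every wild-type library (775 CPM against 1271 to 2050 CPM) and did not pass. CDH2 lay above every one (231 CPM against 142 to 200 CPM) and did not pass. COL1A1 and THY1 lay within the wild-type range. The part of these differences in the results was not tested. In bulk RNA, more cells that express a gene and more of its RNA per cell cannot be told apart.

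Immediate-early genes are transcribed within minutes of a growth factor, calcium signal or stress, without the need for new protein, and most of their mRNAs are short-lived. Serum response factor with its ternary complex partners, acting at CArG boxes, and CREB, acting at cyclic AMP response elements, are the classical activators. The EGR proteins are zinc finger transcription factors that bind GC-rich sites. The NR4A proteins are orphan nuclear receptors, the IER proteins are small signal-induced regulators, and KLF4 and KLF6 are Krüppel-like zinc finger factors.

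NR4A1 and IER2, 2 of the 10 genes, rose in the library labelled ARID1B shRNA at an edgeR adjusted p below 0.05, beside 3.65% of all tested genes that rose and 4.48% that passed in either direction. None of the 10 fell by edgeR; 0 of them had an unadjusted p below 0.05 with a lower value, and 0 fell by DESeq2; of all tested genes, 0.834% fell by edgeR. NR4A1 was 7.24-fold higher and IER2 2.63-fold higher. KLF4, IER3 and NR4A3 also lay above every wild-type library, by fitted folds of 4.76, 3.75 and 2.43, but did not pass the test. These 5 genes that lay above every wild-type library compare with 35.4% of all tested genes in that position, and none of the 10 lay below every wild-type library, where 37.9% of all tested genes lay. EGR1, EGR2, EGR3, NR4A2 and KLF6 lay within the wild-type range. The median log2 fold change was 0.73 over the 10 genes and -0.051 over all tested genes. NR4A1, IER2, KLF4 and IER3 were called without wild-type library 1, where 5.43% of tested genes rose, and with DESeq2, where 9.2% did. NR4A1, NR4A3, IER2 and KLF4 were called without the filter on low counts, where 7.4% rose. NR4A1 alone was called without library 2 (0.836% of tested genes rose), and NR4A1 and IER2 without library 3 (2.68%).

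**Figure D1:**
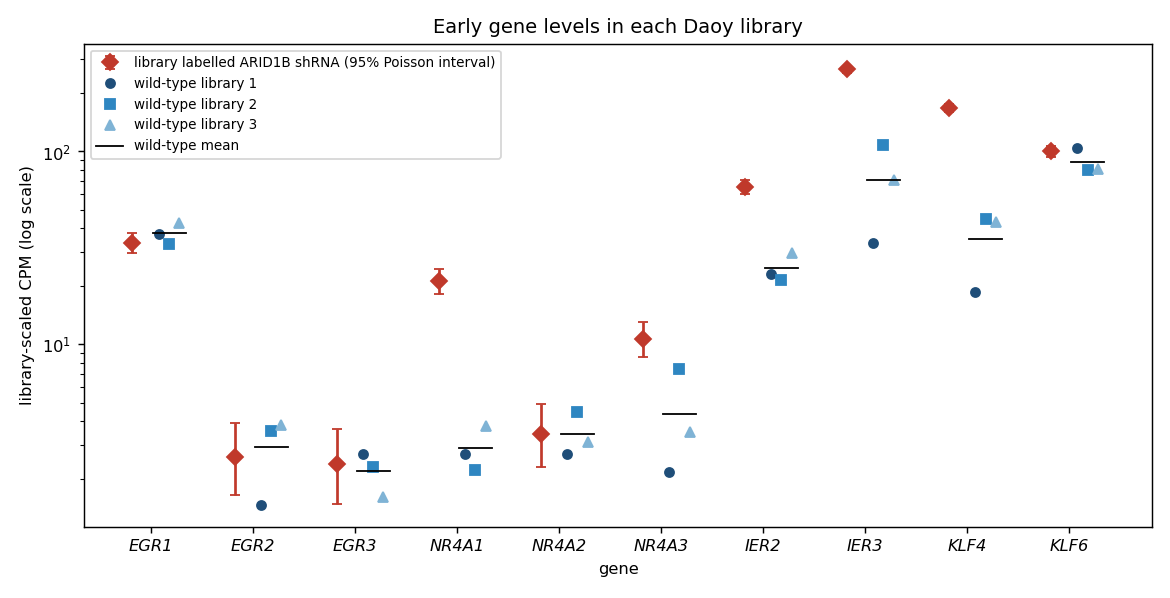
Library-scaled CPM on a log axis for each of the 10 early genes, with the library labelled ARID1B shRNA as a red diamond (bar, exact 95% Poisson interval) and the 3 wild-type libraries as blue symbols beside their mean (line). NR4A1, NR4A3, IER2, IER3 and KLF4 lie above all wild-type libraries, and the wild-type symbols are widest apart for NR4A3 and IER3.

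The EGR genes encode transcription factors that share a conserved zinc finger DNA-binding region, and EGR1 is the one most used as a readout of ERK signalling. EGR1 (ENSG00000120738.7) measured 33.6 CPM in the library labelled ARID1B shRNA, from 295 counts, and 37.6, 33.3 and 42.7 CPM in wild type. Its value lay between wild-type libraries 2 and 1, near the lower end of a narrow range. The log2 fold change was -0.17 (standard error, SE, 0.23; edgeR adjusted p = 0.676), and 2 SE on either side span -0.63 to 0.29. EGR2, best known for its part in hindbrain and peripheral myelin development, had 2.62 CPM against 1.47, 3.56 and 3.84 CPM. EGR3, known for roles in neurons, muscle spindles and lymphocytes, had 2.40 CPM against 2.72, 2.32 and 1.63 CPM. Both sat inside the wild-type range at low counts, 23 and 21 reads in the library labelled ARID1B shRNA. Their log2 fold changes were -0.18 (SE 0.63) and 0.11 (SE 0.47), with edgeR adjusted p of 0.886 and 0.903. The span of 2 SE on either side is -1.44 to 1.08 for EGR2 and -0.83 to 1.05 for EGR3.

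The 5′ flanks of EGR1 and EGR2 are shown because they hold the CArG boxes through which serum response factor acts. The windows run from 150 to 31 bases before a RefSeq transcription start (GRCh38.p14, a later build than that of the counts) and overlap no annotated exon. The EGR1 window is chr5:138465329-138465448 on the plus strand, and the EGR2 window, chr10:62816397-62816516 on the minus strand, belongs to the most downstream of its 3 starts in that table. Capitals mark CArG boxes and, on either strand, the core TGACG of the cyclic AMP response element, which reads CGTCA on the other strand:
EGR1: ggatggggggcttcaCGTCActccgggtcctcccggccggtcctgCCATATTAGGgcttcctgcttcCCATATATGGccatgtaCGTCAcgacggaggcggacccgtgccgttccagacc
EGR2: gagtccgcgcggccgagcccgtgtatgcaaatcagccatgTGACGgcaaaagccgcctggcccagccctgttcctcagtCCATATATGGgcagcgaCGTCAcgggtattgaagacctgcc
EGR1 has 2 CArG boxes in this window, beginning at positions -105 and -83 relative to the start (the base before it is -1). EGR2 has 1, beginning at -71. The other listed starts of EGR2 had neither a CArG box nor TGACG in their promoters of 300 bases. A CArG box occurs in 1.29% of the 35116 promoters of 300 bases in that table, and TGACG in 24.6%. Of the 10 promoters listed for 7 of these genes, those of EGR1 and EGR2 are the 2 with a CArG box. Promoters of EGR3, NR4A2 and IER3 were not used. EGR1 and EGR2 both stood within the wild-type range as measured, and EGR1 lay below it with the GC content and length trend removed. A link between the element and the fold changes was not tested.

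The NR4A receptors bind DNA without a known hormone and are induced by cyclic AMP, calcium and stress. NR4A1 (ENSG00000123358.15, also called Nur77), which has roles in apoptosis and metabolism, measured 21.2 CPM in the library labelled ARID1B shRNA, from 186 counts with an exact 95% Poisson interval of 18.3 to 24.5 CPM. It measured 2.72, 2.24 and 3.78 CPM in wild type, from 35, 29 and 58 counts. The lower bound of that interval lay above the highest wild-type library, and the wild-type libraries differed 1.68-fold among themselves. The log2 fold change was 2.86 (SE 0.34, edgeR adjusted p = 0.0222), larger than that of 98.5% of tested genes. NR4A1 was the member that passed under each of the 8 alternatives tried, although without wild-type library 2 its adjusted p was 0.0498.

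NR4A2 (ENSG00000153234.9, Nurr1), required for midbrain dopamine neurons, had 3.42 CPM in the library labelled ARID1B shRNA and 2.72, 4.48 and 3.12 CPM in wild type. It stood in the middle of the wild-type values. Its log2 fold change was -0.0069 (SE 0.44, edgeR adjusted p = 0.994), with 2 SE spanning -0.90 to 0.88. NR4A3 (ENSG00000119508.13, Nor1), the third receptor of the family, had 10.6 CPM against 2.17, 7.42 and 3.51 CPM. It was highest in the library labelled ARID1B shRNA, but wild-type library 2 came within 1.43-fold of it and the wild-type libraries themselves differed 3.41-fold. Its log2 fold change of 1.28 (SE 0.64) did not pass (edgeR adjusted p = 0.278).

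The NR4A3 and NR4A1 flanks are shown as a contrast, since NR4A3 has several copies of that core near its start and the first RefSeq start of NR4A1 has none in the same window. They are chr9:99821735-99821854 and chr12:52022682-52022801, both on the plus strand, with capitals and positions as above:
NR4A3: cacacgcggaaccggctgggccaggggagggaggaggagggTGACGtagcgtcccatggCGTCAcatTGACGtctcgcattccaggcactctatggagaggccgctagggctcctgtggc
NR4A1: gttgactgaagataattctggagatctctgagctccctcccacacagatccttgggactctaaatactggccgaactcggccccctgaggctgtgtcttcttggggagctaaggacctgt
NR4A3 has 3 matches in this window, beginning at -109, -91 and -83. NR4A1, the gene with the largest increase here, has no CArG box and no TGACG in either of its 2 promoters listed, which says only that these letters are not in these windows. Counts per gene do not tell which start was used. TGACG was found in 5 of the 10 promoters, among them those of IER2 and KLF4. The full palindrome TGACGTCA, which contains the core, was found in 0 of the 10 promoters, and in 1.85% of all.

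IER2 and IER3 are short, quickly induced genes with little protein similarity to each other. IER2 (ENSG00000160888.6), a nuclear protein linked to cell migration, measured 65.4 CPM in the library labelled ARID1B shRNA, from 573 counts, and 23.3, 21.5 and 29.6 CPM in wild type. The library labelled ARID1B shRNA was 2.21-fold above the highest wild-type library. The log2 fold change was 1.40 (SE 0.24, edgeR adjusted p = 0.0388). The IER2 transcript has 61.7% GC, and tested genes in its decile of GC content had a median log2 fold change of 1.32. IER2 thus exceeded that median by 0.079. Once the dependence of counts on GC content and transcript length was removed library by library (the trend removed), its log2 fold change was 0.43 (SE 0.17, edgeR adjusted p = 0.205), and the call also ended without wild-type library 2 (edgeR adjusted p = 0.0686).

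IER3 (ENSG00000137331.11, IEX-1), a stress-induced regulator of cell survival, was the most abundant of the 10 in the library labelled ARID1B shRNA. It measured 266 CPM there, from 2336 counts, and 33.5, 108 and 71.5 CPM in wild type. The library labelled ARID1B shRNA was 2.46-fold above the highest wild-type library, while the wild-type libraries differed 3.23-fold among themselves. Its log2 fold change of 1.91 (SE 0.56) did not pass (edgeR adjusted p = 0.126). Without wild-type library 1, the lowest, it passed with a log2 fold change of 1.57 (edgeR adjusted p = 0.0184), as it did with DESeq2 (adjusted p = 0.00477).

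KLF4 and KLF6 are Krüppel-like factors that respond to serum and stress, and KLF4 is also one of the pluripotency reprogramming factors. KLF4 (ENSG00000136826.10) measured 168 CPM in the library labelled ARID1B shRNA, from 1475 counts, and 18.6, 44.5 and 42.9 CPM in wild type. It was 3.78-fold above the highest wild-type library, and wild-type library 1 was the low one. The log2 fold change was 2.25 (SE 0.46), just outside the threshold (edgeR adjusted p = 0.0648). KLF4 passed without wild-type library 1 (log2 fold change 1.94, edgeR adjusted p = 0.00295) and with DESeq2 (adjusted p = 7.51e-05). KLF6 (ENSG00000067082.10), a growth-restraining factor, had 100.5 CPM against 104, 80.3 and 81.0 CPM. Its value lay just below wild-type library 1, with a log2 fold change of 0.18 (SE 0.21, edgeR adjusted p = 0.621) and 2 SE spanning -0.24 to 0.61.

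Per kilobase of the longest annotated transcript, the wild-type levels fell into a high and a low group. IER3 stood at 52.6 ± 27.7 CPM per kb, KLF6 at 19.0 ± 2.88, KLF4 at 12.6 ± 5.16, and IER2 at 8.45 ± 1.46 (SD, n = 3), while EGR1 averaged 12.1 CPM per kb (10.6 to 13.6). IER3 and KLF6, KLF6 and KLF4, and EGR1 and IER2 did not overlap between wild-type libraries, whereas KLF4 and EGR1 did. The remaining genes, EGR2, NR4A2, NR4A3, NR4A1 and EGR3 in that order, stood between 0.996 and 0.512 CPM per kb, and neighbours in this order overlapped. In the library labelled ARID1B shRNA the order was IER3 at 197, KLF4 at 59.8, IER2 at 22.3, KLF6 at 21.6, EGR1 at 10.7 and NR4A1 at 4.39 CPM per kb, with the others at 1.86 or below. NR4A1 was thus ninth of the 10 genes in wild type and sixth in the library labelled ARID1B shRNA.

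The wild-type libraries did not vary alike. Library 1 was the lowest of the wild-type libraries for 5 genes, EGR2, NR4A2, NR4A3, IER3 and KLF4, and the highest for EGR3 and KLF6. How often it was lowest over all tested genes was not counted. EGR2, EGR3, NR4A2 and NR4A3 had 19, 35, 35 and 28 counts in it. Against the mean of the other wild-type libraries, on a log2(CPM + 1) scale, library 1 was lower by 1.37 for IER3, 1.19 for KLF4, 0.96 for NR4A3 and 0.92 for EGR2. For EGR1 and IER2 the same differences were -0.0059 and -0.11. Whether library 1 is a parental or a vector-only control cannot be told apart from other differences between the libraries.

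**Figure D2:**
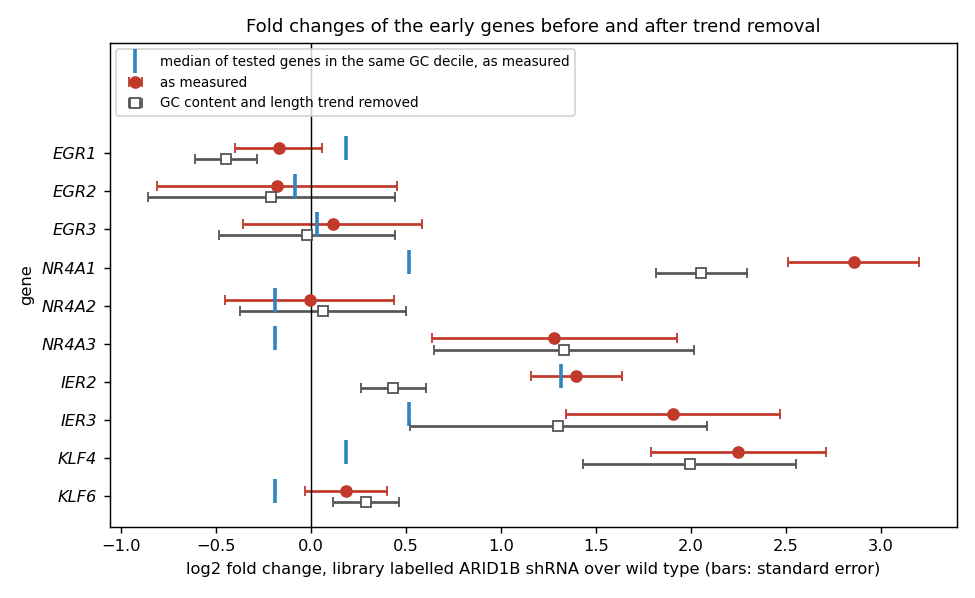
Log2 fold change of the library labelled ARID1B shRNA over wild type for each early gene, as measured (red circles) and with each library's GC content and length trend removed (open squares), with standard errors as bars; blue ticks mark the median of all tested genes in the gene's GC decile. The 2 estimates lie close together for NR4A3 and KLF4 and apart for IER2.

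GC content moved with the fold change across all genes and touched these genes unequally. The median log2 fold change ran from -0.30 in the lowest GC decile to 1.32 in the highest. NR4A1 (59.8% GC) and IER3 (58.5% GC) fall in a decile with a median of 0.51, EGR1 and KLF4 in one with 0.19, and NR4A2, NR4A3 and KLF6 in one with -0.19. With the trend removed, NR4A1 remained called, at 13.8 CPM against 3.09, 3.18 and 3.62 CPM (log2 fold change 2.05, SE 0.24, edgeR adjusted p = 0.0282), beside 1.86% of all tested genes that rose and 0.969% that fell. KLF4 then had a log2 fold change of 1.99 (SE 0.56), IER3 of 1.30 (SE 0.78) and NR4A3 of 1.33 (SE 0.68), none of which passed (edgeR adjusted p = 0.159, 0.401 and 0.316). EGR1 then measured 28.99 CPM against 37.9, 39.3 and 41.2 CPM, below each wild-type library, with a log2 fold change of -0.45 (SE 0.16, edgeR adjusted p = 0.184). The median over the 10 genes was 0.36 with the trend removed.

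**Figure D3:**
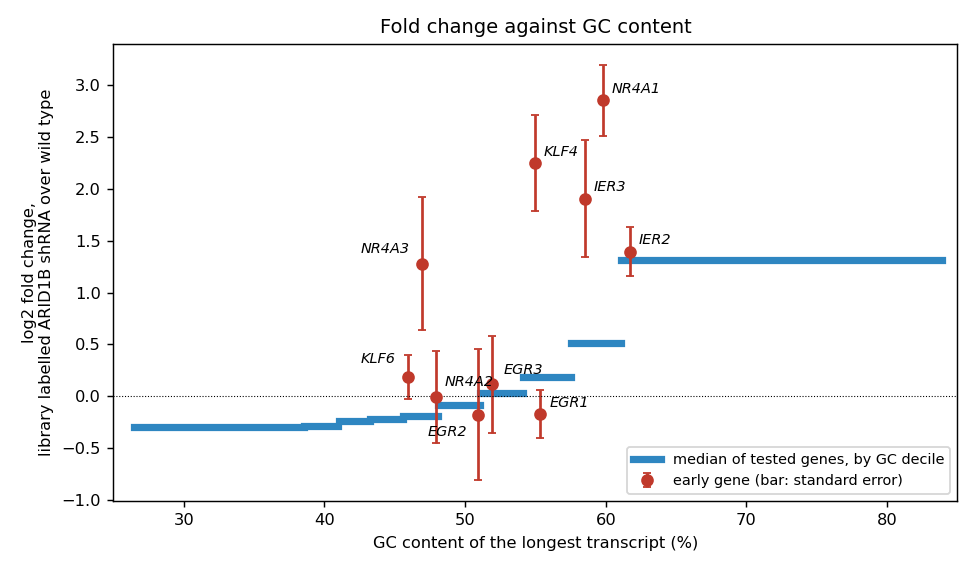
Log2 fold change of the library labelled ARID1B shRNA over wild type against the GC content of the longest transcript, in percent, for the 10 early genes (red, bars are standard errors) and as the median of all tested genes in each GC decile (blue). IER2 lies on the median of its decile, and NR4A1, KLF4, IER3 and NR4A3 lie above theirs.

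EGR3, IER2, IER3 and NR4A1 each have an annotated antisense partner, and the labels give no strand setting for the counting. The partners of EGR3 and IER2 had 0 counts in every library, and those of IER3 and NR4A1 had 0 counts in the library labelled ARID1B shRNA and 0 to 1 in wild type. Reads from a gene and its partner cannot be told apart without strand.

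Of 34 other tested immediate-early genes outside the AP-1 family, 10 rose and 24 did not pass, and the median log2 fold change over the list was 1.46. Of all tested genes, 3.65% rose. PPP1R15A, the stress-induced subunit of the eIF2alpha phosphatase, measured 439 CPM against 38.8, 42.7 and 35.9 CPM in wild type (edgeR adjusted p = 0.0146). ARC, a neuronal activity gene, measured 12.5 CPM against 0.388, 0.464 and 0.586 CPM (edgeR adjusted p = 0.0149). ATF3, a stress-induced transcription factor, measured 262 CPM against 53.3, 62.0 and 42.1 CPM (edgeR adjusted p = 0.0183), and the growth regulator MYC 55.8 CPM against 13.3, 17.2 and 16.3 CPM (edgeR adjusted p = 0.0233). These 4 also passed with the trend removed, where 7 of the list rose, beside 1.86% of all tested genes, and its median was 1.00. Leaving out wild-type library 1 gave 20 calls in either direction in this list, library 2 gave 3 and library 3 gave 5. These stand beside 1189 of 16809, 157 of 16746 and 478 of 16752 tested genes called in either direction. In the AP-1 family 5 of 7 genes rose, FOSL1, JUN, JUND, FOSL2 and JUNB, by 3.10, 2.28, 1.65, 0.92 and 3.18 on the log2 scale (edgeR adjusted p between 0.0183 and 0.0425), and 2 did without library 2. With the trend removed JUN alone passed (301 CPM against 50.3, 60.5 and 75.5 CPM as measured), and JUND turned to -0.26. The 2 that passed without library 2 were FOSL1 and JUND, so no AP-1 gene passed under both of these alternatives.

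Among the other EGR, KLF and IER genes, 2 of 13 tested rose, beside 3.65% of all tested genes. KLF2, a factor induced by shear stress in endothelium, measured 17.2 CPM against 0.466, 1.24 and 1.76 CPM (edgeR adjusted p = 0.0314). KLF16, a little studied relative, measured 30.9 CPM against 9.003, 6.88 and 10.8 CPM (edgeR adjusted p = 0.0360). With the trend removed KLF2 stood at a log2 fold change of 2.46 and did not pass (edgeR adjusted p = 0.0773), and KLF16 turned to -0.13. IER5 and KLF7 stood 2.05-fold and 2.29-fold higher and did not pass (edgeR adjusted p = 0.0591 and 0.0804). EGR4, KLF1, KLF15, KLF17 and IER5L were too low to test, with 10 counts or fewer in each library.

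The activators and partners of these genes were examined next. Their counts stand beside 3.65% of all tested genes that rose. Of 15 upstream factors 1 rose, MEF2D, a calcium-regulated factor that acts at NR4A1 in T cells (89.1 CPM against 30.4, 38.0 and 42.4 CPM, edgeR adjusted p = 0.0425). Its log2 fold change of 1.27 was 0.71 with the trend removed and did not pass there (edgeR adjusted p = 0.156). SRF, the serum response factor, measured 104 CPM against 52.4, 47.3 and 65.7 CPM and did not pass (edgeR adjusted p = 0.0792), and its log2 fold change of 0.92 turned to -0.021 with the trend removed. The CREB coactivators CRTC1 and CRTC3 stood at log2 fold changes of 1.16 and 0.66 and did not pass (edgeR adjusted p = 0.102 and 0.142); that of CRTC1 turned to -0.019 with the trend removed. Of 9 partners and corepressors 1 rose, the acetyltransferase CREBBP (142 CPM against 69.7, 69.4 and 72.4 CPM, edgeR adjusted p = 0.0326). Its log2 fold change of 1.01 was 0.51 with the trend removed, where it did not pass (edgeR adjusted p = 0.169). RXRA and RXRB, retinoid receptors of the kind that pair with NR4A1 and NR4A2, stood at 1.18 and 0.32 on the log2 scale (edgeR adjusted p = 0.207 and 0.333). With the trend removed they stood at 0.23 and -0.24. Their relative RXRG stood at -1.16 and did not pass, and at -1.28 with the trend removed. NAB2, a corepressor and target of the EGR proteins, stood at 0.64 (edgeR adjusted p = 0.218) and turned to -0.43 with the trend removed.

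Of 14 tested genes listed as EGR targets, 1 rose, beside 3.65% of all tested genes. It was TNFRSF12A, the TWEAK receptor, which measured 230 CPM against 32.5, 47.8 and 49.8 CPM (edgeR adjusted p = 0.0199) and did not pass with the trend removed (edgeR adjusted p = 0.187). TGFB1 and ID3 stood at 0.68 and 1.31 on the log2 scale and did not pass (edgeR adjusted p = 0.108 and 0.173), and TGFB1 turned to -0.56 with the trend removed.

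Of 10 mRNA decay factors 1 rose, beside 3.65% of all tested genes. It was ZFP36L2, which destabilises AU-rich mRNAs (123 CPM against 30.3, 42.3 and 43.9 CPM, edgeR adjusted p = 0.0305). Its log2 fold change of 1.66 was 1.41 with the trend removed and missed the threshold (edgeR adjusted p = 0.0594). Its relative ZFP36 measured 16.8 CPM against 4.81, 2.01 and 3.51 CPM and did not pass (edgeR adjusted p = 0.0545), and neither did KHSRP nor PAN2 (edgeR adjusted p = 0.0710 and 0.170). Calls in the lists of other EGR, KLF and IER genes, upstream factors, partners, EGR targets and decay factors all ended without library 2. All but that of TNFRSF12A ended without library 3, and all remained without library 1. Over all tested genes, 157 of 16746 were called in either direction without library 2 and 478 of 16752 without library 3. Without library 1 it was 1189 of 16809, beside 763 of 17024 with all libraries. The medians of these lists, in that order, were 0.68, 0.48, 0.29, 0.82 and -0.11, beside -0.051 over all tested genes. With the trend removed they were 0.77, 0.10, 0.062, 0.38 and 0.072, beside -0.063 over all tested genes. KLF2, KLF10, IER5, SRF, ZFP36, ZFP36L1 and ZFP36L2 also stand in the list of other immediate-early genes, and NAB2 stands among partners and EGR targets.

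**Figure D4:**
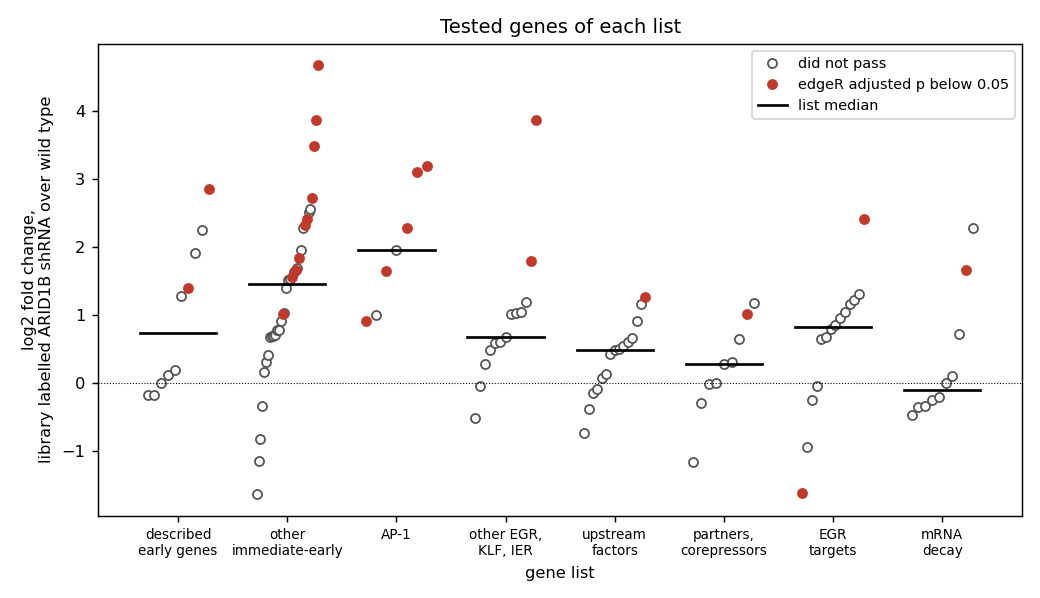
Log2 fold change of the library labelled ARID1B shRNA over wild type for every tested gene of 8 lists, 1 point per gene, filled where the edgeR adjusted p is below 0.05, with list medians as lines. Filled points are 2 of the 10 described early genes, 10 of 34 other immediate-early genes and 5 of 7 AP-1 genes, beside 4.48% of all tested genes. Some genes stand in more than 1 list.

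Likeness of profile was measured as the Euclidean distance between log2(CPM + 1) values centred over the 4 libraries, for the gene with the highest mean wild-type CPM in each family. NR4A3 was nearest to GDNF, CD274 and SLC7A2 (distances 0.21, 0.23 and 0.24), all highest in the library labelled ARID1B shRNA and then in wild-type library 2. CD274, which encodes PD-L1, measured 29.2 CPM against 5.82, 19.9 and 10.9 CPM. IER3 was nearest to PMAIP1, PDCD1LG2 and KCTD16 (0.19, 0.26 and 0.29), all lowest in wild-type library 1. PMAIP1, which encodes the BCL2-family protein NOXA, measured 342 CPM against 40.4, 148 and 103 CPM. EGR1 and KLF6 had nearly flat profiles and were nearest to COA3, ATP6V0D1 and PSAP (0.031, 0.039 and 0.048) and to FAM161B and SCAND3 (0.034 and 0.044). With 4 libraries such neighbours are a description only.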

How the data were processed

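Single reads of 100 nucleotides were made from the poly(A) RNA of 4 Daoy samples, per the labels. The deposited values were raw read counts per Ensembl gene, made by the authors; the build was GRCh37 (hg19) and the tools were HISAT2, HTSeq, bcl2fastq and DESeq2, per the submitters' processing notes. No version, strand setting or annotation release was given in the sources used here. HTSeq's 5 summary lines per file are not genes and were dropped; reads outside genes made up 5.27% to 7.65% and ambiguous reads 5.93% to 6.75% of genic, ambiguous and outside reads together. Symbols matched 52338 of 57820 identifiers without version, from a GENCODE symbol table; GC content and length came from the longest GENCODE 29 transcript (GRCh38). Promoters are RefSeq, GRCh38.p14; those of 7 of the 10 genes were used, and EGR3, NR4A2 and IER3 were not.

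Counts were fitted in edgeR 4.0.16 (R 4.3.3): filterByExpr (minimum count 10, total 15), TMM, glmQLFit in its earlier form with robust shrinkage, glmQLFTest, Benjamini-Hochberg over 17024 genes, threshold 0.05. CPM use TMM-scaled library sizes. The SE is the log2 fold change over the square root of F. The fit assumes that the lone library varies as the wild-type libraries do. Poisson intervals are exact, at 95%, and reflect counting alone. Libraries were not duplicates of one another (chi-square per degree of freedom 23.1 or more).

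Alternatives were RLE scaling, no filter, DESeq2 1.42.0, the later quasi-likelihood form, leaving out each wild-type library, and removal through offsets of each library's loess trend (span 0.3, mean count 20 or more) on GC content and length. The procedure was tested on simulated data. Members and lists were chosen with earlier results of these data known. Named were all 10 members, ARID1B, up to 4 genes per list by smallest p and any gene a small count refers to. So were 3 nearest profiles per family among genes with a mean log2 CPM of at least 3. RXRG was named beside RXRA and RXRB after its values were seen. Of the markers, those that passed, that lay at 0 or that carried or went against a sum were named, after their values were seen. A gene of the EGR target list and a neighbour profile that these rules select are not reported here.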

Additional observations from a re-analysis of the deposited data

How the results depend on the processing

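Of 80 values for the 10 genes under 8 alternatives, 65 kept their direction and side of the threshold. NR4A1 passed under all 8, with a log2 fold change of 2.05 to 3.09. The number of the 10 genes called was 2 with RLE scaling and with the later quasi-likelihood form, 4 without a filter on low counts, 4 with DESeq2 and 1 with the GC content and length trend removed, and leaving out each wild-type library gave 1 to 4. Of all tested genes, 763 were called, 621 of them higher. With RLE scaling 861 and 718 were, and with the later quasi-likelihood form 838 and 694. Without a filter 3226 and 2274 were, with DESeq2 1789 and 1363, and with the trend removed 481 and 316. Leaving out each wild-type library gave 157 to 1189 and 140 to 912. Without a filter NR4A3 and KLF4 passed as well. The cause of these changes was not tested. Genes near 0 changed sign with no call: NR4A2 was at 0.022 with RLE scaling, 0.023 with DESeq2 and 0.063 with the trend removed, and at -0.15 to 0.24 when each wild-type library was left out; EGR3 was at -0.020 with the trend removed and at -0.075 to 0.29 when each was left out, and EGR2 at -0.49 to 0.050. No paired analysis was possible because the labels name no pairs and the library labelled ARID1B shRNA is single. EGR2, EGR3 and NR4A2 had under 60 counts in every library; the part of depth in their results was not tested.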
